A study of Mus musculus with 6 samples.

Results

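The 4 Clk genes, Clk1, Clk2, Clk3 and Clk4, encode the CDC-like kinases. They were taken by gene identifier from lists of splicing events made for 6 RNA sequencing libraries of the mouse nucleus accumbens (NAc), the part of the ventral striatum that serves reward learning. They are 4 of the 16154 genes with an entry in the lists, and carried 92 of 133207 events and 371 of 440199 entries. Their introns 3 and 4, which flank exon 4, were read as part of an assembled exon in all 6 libraries in Clk1, Clk3 and Clk4 and in 5 of 6 in Clk2. No Clk event was listed in every library of one group and in none of the other.

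CDC-like kinases are nuclear kinases that phosphorylate SR proteins, the serine- and arginine-rich splicing factors that mark exons for the spliceosome. Phosphorylation by CLK releases SR proteins from nuclear speckles and changes splice site choice, including in the transcripts of the Clk genes themselves. A detained intron is an intron that stays in an otherwise spliced, polyadenylated transcript, which is kept in the nucleus and can be spliced later. Clk1 is a textbook example: the introns around its exon 4 are detained in unstimulated cells, and they are spliced out after stress or when the kinases are inhibited. Skipping of exon 4 gives a shifted reading frame and a truncated protein without the kinase domain.

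All animals were adult male C57BL/6N mice that went through conditioned place preference (CPP) training, in which a compartment is paired with an injection. The saline group (3 libraries) was injected with saline only, and the morphine group (3 libraries) was injected with morphine and saline in alternating sessions. In both groups the NAc was dissected shortly after the preference test that followed training, and total RNA was extracted from the whole tissue. The labels name no transgene or deletion, and the sources do not settle whether each library is 1 mouse or a pool. A p-value over the libraries therefore measures only the spread between these samples.

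An event in these lists is a difference between transcripts assembled in the same library, such as an intron retained in one transcript and spliced in another. The lists hold positions and no usable level, so what can be compared is in how many libraries an event was listed, and not how much of a transcript carried it. Each retained-intron event of the Clk genes was listed together with a spliced form in that library. Entries per library numbered 67535 to 80469 and genes 14243 to 14956. Relative sequencing depth, with saline library 1 set to 1.0, was 1.0 to 1.37 in the saline libraries and 1.2 to 1.59 in the morphine libraries. Retained introns over all genes numbered 7975, 5490 and 5473 in saline libraries 1, 2 and 3, and 9604, 7359 and 6483 in morphine libraries 1, 2 and 3. A form that is missing from a list may still have been made in the tissue. All 10 markers of striatal projection neurons were listed in all 6 libraries. So were the 3 markers of cortical excitatory neurons, 4 of oligodendrocytes, 3 of astrocytes, 3 of microglia and 2 of the ventricle lining, and 1 of 2 of endothelium, where Cldn5 was listed in none. These are whole-tissue libraries, so the cell type in which a Clk intron was retained cannot be told, and fewer cells of a type and less RNA per cell cannot be told apart.

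Exon 4 is the exon between the paired introns in every Clk gene, and its sequence is shown because the 3 retained-intron events listed in every library all span it. The stretches below are read 5′ to 3′ on the gene's strand from GENCODE M21 transcripts on GRCm38, with exon 4 in capitals and 20 bases of intron 3 and of intron 4 in lower case. They lie at chr1:58420101-58420231 on the minus strand (Clk1), chr3:89169598-89169722 on the plus strand (Clk2), chr9:57758607-57758743 on the minus strand (Clk3) and chr11:51273058-51273188 on the plus strand (Clk4).
Clk1 exon 4: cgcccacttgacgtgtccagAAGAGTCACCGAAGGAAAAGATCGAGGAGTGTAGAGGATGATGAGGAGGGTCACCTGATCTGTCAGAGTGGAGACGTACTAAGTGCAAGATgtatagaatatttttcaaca
Clk2 exon 4: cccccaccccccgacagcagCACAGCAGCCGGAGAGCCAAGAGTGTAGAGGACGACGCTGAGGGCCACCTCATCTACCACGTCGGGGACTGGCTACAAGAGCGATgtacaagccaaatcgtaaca
Clk3 exon 4: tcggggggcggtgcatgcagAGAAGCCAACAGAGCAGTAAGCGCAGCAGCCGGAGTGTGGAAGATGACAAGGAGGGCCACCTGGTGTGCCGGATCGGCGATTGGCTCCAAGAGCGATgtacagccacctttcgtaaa
Clk4 exon 4: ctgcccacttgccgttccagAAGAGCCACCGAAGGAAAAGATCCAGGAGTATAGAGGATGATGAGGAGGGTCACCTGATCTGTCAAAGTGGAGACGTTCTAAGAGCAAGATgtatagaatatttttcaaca

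Exon 4 is 91 bases long in Clk1, 85 in Clk2, 97 in Clk3 and 91 in Clk4, each 1 base over a multiple of 3, so that skipping it shifts the reading frame in all of them. Clk1 and Clk4 share 85 of 91 bases of exon 4 (93.4% identity), and the other pairs share 63.6% to 66.3%. The identity of Clk1 and Clk4 continues past the exon, where all 20 of the first 20 bases of intron 4 are the same. In an alignment with gaps, like that of the exons, Clk2 and Clk3 share 16 of these bases and the other pairs 12. Of the 20 bases of intron 3 before exon 4, Clk1 and Clk4 share 18 in such an alignment, and 10 when compared position by position. The other pairs share 9 to 12 with gaps.

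The outer splice sites of the intron pair are shown next, because a retained block in the lists is closed by the ends of exons 3 and 5. The first set holds the last 10 bases of exon 3 in capitals and the first 20 bases of intron 3, at chr1:58421063-58421092, chr3:89168914-89168943, chr9:57760804-57760833 and chr11:51272013-51272042.
Clk1 exon 3 to intron 3: TTCACACGGGgtatgagtgccttttaaacg
Clk2 exon 3 to intron 3: CTCATCTTCAgtgagtgccagcccagcctt
Clk3 exon 3 to intron 3: TGCTTCCTCGgtgagtggtggccagagtgt
Clk4 exon 3 to intron 3: GTCGCATTCGgtatgagtggtttgttttta
The second set holds the last 30 bases of intron 4 and the first 10 bases of exon 5 in capitals, at chr1:58419724-58419763, chr3:89170019-89170058, chr9:57758341-57758380 and chr11:51273530-51273569.
Clk1 intron 4 to exon 5: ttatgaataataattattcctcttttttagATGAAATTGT
Clk2 intron 4 to exon 5: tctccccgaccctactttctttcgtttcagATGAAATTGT
Clk3 intron 4 to exon 5: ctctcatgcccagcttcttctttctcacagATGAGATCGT
Clk4 intron 4 to exon 5: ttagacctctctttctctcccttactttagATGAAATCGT

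All of these introns begin with GT and end with AG. Intron 4 begins with GTATAG in Clk1 and Clk4, GTACAA in Clk2 and GTACAG in Clk3. Intron 3 begins with GTATGA in Clk1 and Clk4, and with GTGAGT in Clk2 and Clk3. The members split the same way by base composition. GC content was 33.0% in intron 3 and 26.4% in intron 4 of Clk1, and 36.7% and 34.0% in Clk4. In Clk2 it was 56.1% and 51.7%, and in Clk3 51.8% and 50.0%. The 20 bases before exon 4 hold 12 pyrimidines in Clk1, 13 in Clk2, 7 in Clk3 and 14 in Clk4, and those before exon 5 hold 15, 16, 15 and 17.

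Reading on from the coding frame of the annotated protein-coding transcript, a retained intron 3 brought an in-frame stop codon that ended 6 bases past exon 3 in Clk1 and in Clk4, 36 bases past it in Clk3 and 60 in Clk2. An intron 4 retained alone brought a stop codon that ended 62 bases past exon 4 in Clk1, 29 in Clk2, 86 in Clk3 and 80 in Clk4. Skipping of exon 4 brought one that ended 21 bases past exon 3 in Clk1 and Clk4 and 12 in Clk2, in each case inside exon 5, which is 67 bases long in all 4 genes. In Clk3 it ended 90 bases past exon 3, beyond exon 5. The kinase domain of these proteins is encoded downstream of exon 4.

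Clk1 (ENSMUSG00000026034, chr1:58410189-58424066, minus strand, GRCm38) is the best studied member. The number of introns retained in all 6 libraries was higher in Clk1 (4) than in Clk4 (2), Clk2 (0) and Clk3 (0). Introns are numbered along its protein-coding transcript of 13 exons and 12 introns. Intron 3 (chr1:58420212-58421082, 871 bases) and intron 4 (chr1:58419734-58420120, 387 bases) lay in a retained form in 6 of 6 libraries. A single assembled exon running from exon 3 through exon 4 to exon 5, with both introns in it, was listed in all 6 libraries (chr1:58419734-58421082, 1349 bases between exons 3 and 5). This block equals an annotated exon, and the retained-intron transcripts Clk1-204 and Clk1-212 span both introns.

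Retention in Clk1 was not restricted to the pair around exon 4. Intron 6 (chr1:58417180-58417266, 87 bases) and intron 7 (chr1:58414685-58417012, 2328 bases) also lay in a retained form in 6 of 6 libraries. They formed a block of exons 6 to 8 (chr1:58414685-58417266, 2582 bases of introns with exon 7) in saline libraries 1, 2 and 3 and in morphine library 1. Intron 5 (chr1:58417384-58419666, 2283 bases), which separates the blocks, was retained in saline library 3 and in morphine libraries 2 and 3. In morphine libraries 2 and 3 the assembly joined the blocks into a single exon of 6719 bases from exon 3 to exon 8, holding 5 introns. In saline library 3 a block of 4296 bases held introns 3 to 6, beside the block of exons 6 to 8. No intron of Clk1 upstream of intron 3 or downstream of intron 7 was in an assembled exon in any library.

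Around exon 4 of Clk1 the lists also held a partly spliced form, which kept intron 3 with intron 4 removed, in saline libraries 1 and 2 and in morphine library 1. Retained-intron events at intron 3 (this form against the spliced one) and at intron 4 (the joint block against this form) were listed in those 3 libraries. No assembled exon of Clk1 held intron 4 without intron 3. The whole span of 1349 bases was listed against a form without exon 4 in saline library 3 and morphine library 1. These were also the 2 libraries that listed skipping of exon 4 (chr1:58420121-58420211, 91 bases), so both outcomes known for this exon, retention on both sides and skipping, were present in a library of each group.

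Clk4 (ENSMUSG00000020385, chr11:51261730-51281766, plus strand) is the member closest to Clk1 in exon 4, and the same intron pair was retained in every library. Intron 3 (chr11:51272023-51273077, 1055 bases) and intron 4 (chr11:51273169-51273559, 391 bases) were in a retained form in 6 of 6 libraries, as a block from exon 3 to exon 5. The span of 1537 bases was listed in 6 of 6 libraries both against the form with exon 4 spliced in and against the form with exon 4 skipped. With a further change of exon boundary it was listed in 4 libraries, saline 1 and 3 and morphine 1 and 3. The block spans both introns of the annotated transcript Clk4-213, although its outer ends differ from that exon. Intron 7 (chr11:51275579-51275769, 191 bases) was retained in saline library 3 and morphine library 1.

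Intron 2 of Clk4 (chr11:51267332-51271799, 4468 bases) was retained whole in saline libraries 2 and 3 and in no morphine library. In saline library 2 a single exon of 5998 bases ran from exon 2 to exon 4. In saline library 3 exons of 4852 bases, from exon 2 to exon 3, and of 5004 bases, from inside intron 2 to exon 4, were assembled. The part of intron 2 before the 67-base exon described below (chr11:51267332-51268164, 833 bases) was listed as retained in the same 2 libraries. Saline library 1 had neither form, so this difference followed 2 of 3 saline libraries and not the group. An exon from the start of the 67-base exon to the end of exon 3 (chr11:51268165-51272022, 3858 bases) held the later part of intron 2. It was listed in saline library 1 and in morphine libraries 1 and 3.

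Clk2 (ENSMUSG00000068917, chr3:89164795-89176921, plus strand) carried the intron pair in 5 of 6 libraries. Intron 3 (chr3:89168924-89169617, 694 bases) and intron 4 (chr3:89169703-89170048, 346 bases) were retained together in saline libraries 1, 2 and 3 and in morphine libraries 2 and 3. Together with exon 4 the span measures 1125 bases, and the annotated retained-intron transcript Clk2-207 also covers it. Morphine library 1 listed no retained intron of Clk2 at all, although it had more retained introns over all genes (9604) than any other library. A partly spliced form of Clk2 kept intron 4 with intron 3 removed, and was listed in saline library 3 and in morphine libraries 2 and 3. Retained-intron events at intron 4 (346 bases, this form against the spliced one) and at intron 3 (chr3:89168924-89169614, 691 bases, the joint block against this form) were listed in those 3 libraries. No assembled exon of Clk2 held intron 3 without intron 4.

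The start of exon 4 in Clk2 lay at 2 positions 3 bases apart, 89169615 and 89169618, where the annotated sequence reads CAGCAG before the downstream start, so that either CAG can serve as the acceptor. Exon 3 also had a pair of starts 3 bases apart, 89168695 and 89168698. Such tandem acceptors add or remove a single amino acid and keep the frame. The retained span around exon 4 of Clk2 was listed in both an exact and an inexact class in the same 5 libraries.

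Further retention in Clk2 lay in the 3′ part of the gene and varied from library to library. Intron 7 (chr3:89173544-89174196, 653 bases) was in a retained form in morphine libraries 2 and 3, and inside a transcript's start exon in saline library 2 and morphine library 1. Intron 8 (chr3:89174292-89174944, 653 bases) was retained in morphine library 3 and lay in a start exon in morphine library 1. Introns 9 (83 bases) and 10 (151 bases) were retained in saline libraries 1 and 2, and intron 11 (173 bases) in saline library 2 and morphine library 3. None of these was in a retained form in all libraries of either group. Counting start exons, intron 7 was held in all 3 morphine libraries and in 1 saline library. Intron 1 (chr3:89165107-89167034, 1928 bases) was in no retained form, but lay inside a start exon, ending at 89167204, in 6 of 6 libraries.

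Clk3 (ENSMUSG00000032316, chr9:57750624-57765860, minus strand) had the fewest listed events of the 4 genes. Intron 3 (chr9:57758724-57760823, 2100 bases) and intron 4 (chr9:57758351-57758626, 276 bases) were retained together, as a span of 2473 bases, in saline libraries 1, 2 and 3 and in morphine library 3. The block equals an exon of the retained-intron transcript Clk3-203. In morphine libraries 1 and 2 the same introns lay inside a last exon that began at exon 3 and ran past exon 5 into intron 5 (chr9:57756805-57761040 and chr9:57756861-57761040). Counting those exons, introns 3 and 4 of Clk3 were in an assembled exon in 6 of 6 libraries, and in those 2 morphine libraries the lists differed by where the transcript ended. Intron 8 (chr9:57753401-57753500, 100 bases) was retained in saline libraries 1, 2 and 3 and in morphine library 1. Intron 1 (3206 bases) was inside a start exon in all libraries but saline library 2.

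**Figure D1:**
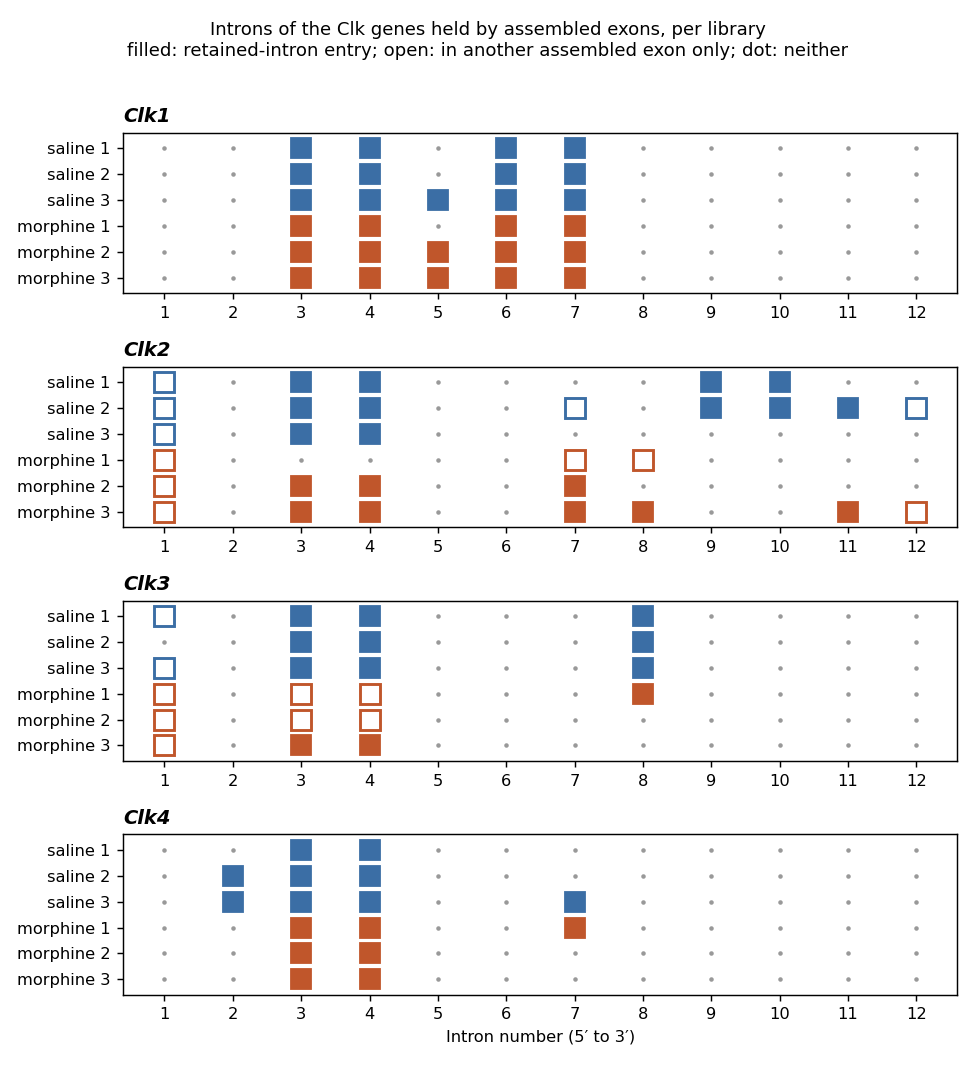
Introns of the 4 Clk genes by library, with the intron number of the protein-coding transcript on the x axis and the 3 saline (blue) and 3 morphine (orange) libraries on the y axis. A filled square is an intron held by a retained-intron form, an open square an intron held only by another assembled exon, and a dot neither. Introns 3 and 4 are filled in 6 of 6 libraries in Clk1 and Clk4, in 5 of 6 in Clk2 and in 4 of 6 in Clk3.

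**Figure D2:**
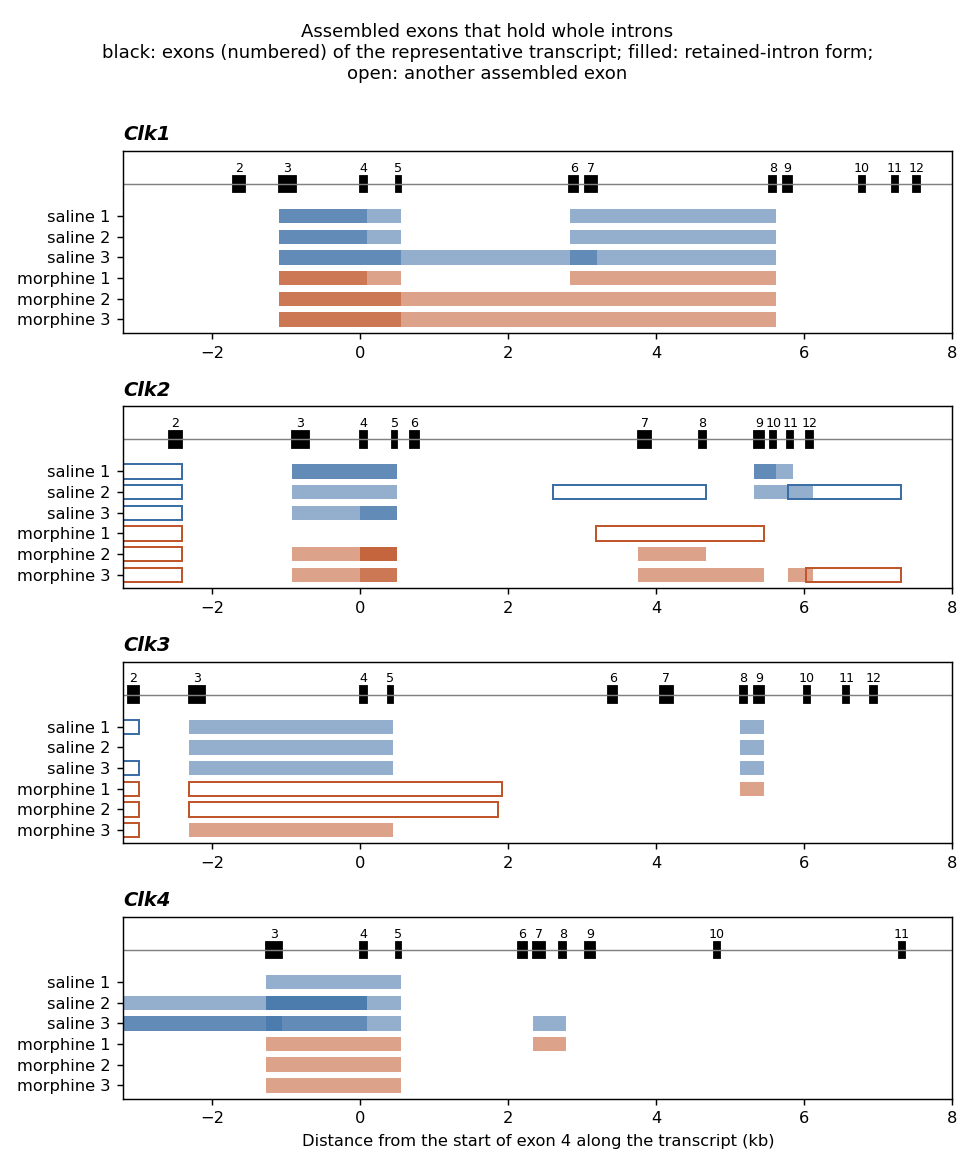
Assembled exons that hold whole introns, drawn to scale along the transcript with distance from the start of exon 4 in kb on the x axis and 1 row per library (saline blue, morphine orange). Black boxes are annotated exons with their numbers, filled bars retained-intron forms (darker where forms overlap) and open bars other assembled exons, cut at the plotted window. The bar from exon 3 to exon 5 recurs in all 4 genes, and reaches exon 8 of Clk1 in morphine libraries 2 and 3.

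Over the 48 introns of the 4 genes, 19 (39.6%) were in a retained form in at least 1 library and 6 (12.5%) in all 6, which were introns 3, 4, 6 and 7 of Clk1 and introns 3 and 4 of Clk4. The background was 10.1% and 0.469% of 147608 introns, taken over the 13037 genes with an entry in every library. Counting start, end and other assembled exons, 9 of 48 (18.8%) were held in all 6 libraries, against 0.967% over all genes. At least 2 introns in all 6 libraries were found in 1.2% of genes, and Clk1 and Clk4 are among them. The share over all genes takes in genes of any expression level, for which no level was available, so these shares are a description and were not tested.

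Length was compared within the genes as a description. The median length was 391 bases for the 19 retained in at least 1 library and 631 for the 6 retained in all, against 634 for all 48. Over all genes the retained introns were shorter (median 680 bases) than introns in general (median 1377 bases). In each Clk gene intron 3 was longer than intron 4.

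As events, the 4 genes had 47 retained introns, counted separately for each class and span. Of these, 27 (57.4%) were listed in a single library, 6 in 2, 5 in 3, 4 in 4, 2 in 5 and 3 (6.38%) in all 6. Over all genes, 67.6% of 26526 retained introns were listed in 1 library and 1.7% in 6. The 3 Clk events listed in all 6 libraries were the span across introns 3 and 4 of Clk1 and the spans across introns 3 and 4 of Clk4 with and without exon 4. The retained block equalled an annotated exon for 10 of 47 Clk events (21.3%), and for 7.75% of all retained introns. None of the 27 Clk events of a single library had an annotated block.

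**Figure D3:**
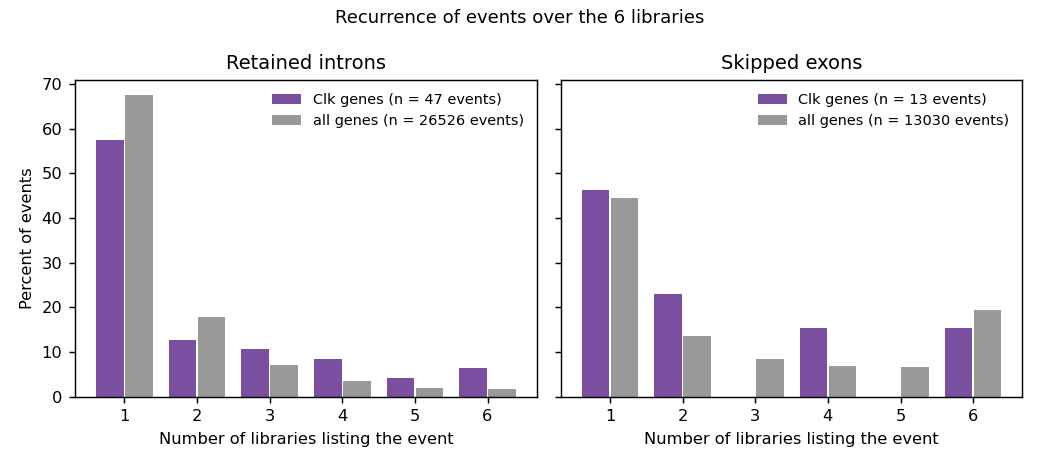
Percent of events (y axis) by the number of libraries that listed them (x axis), for retained introns (left) and skipped exons (right), in the Clk genes (purple, 47 and 13 events) and in all genes (grey, 26526 and 13030 events). Most retained introns were listed in 1 library in both sets (57.4% and 67.6%), and 6.38% of those of the Clk genes were in all 6.

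Skipped exons were listed most often in Clk4. Exon 4 of Clk4 (chr11:51273078-51273168, 91 bases), the exon printed above, was skipped in 6 of 6 libraries, and GENCODE holds 3 transcripts without it. Exon 2 (chr11:51267171-51267331, 161 bases), which begins with the annotated start codon, was also skipped in 6 of 6 libraries, and with a further boundary change in saline 1 and 3 and morphine 1 and 3. A 67-base exon inside intron 2 (chr11:51268165-51268231) was skipped in saline libraries 2 and 3, where exon 2 and the 67-base exon were also skipped together. These were the libraries in which intron 2 was retained whole.

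In Clk1 skipping of exon 4 was listed in saline library 3 and morphine library 1. In Clk2 and Clk3 its skipping was listed in 0 of 6 libraries, although GENCODE holds a transcript without it for each (Clk2-204 and Clk3-209, both annotated as targets of nonsense-mediated decay). In Clk2 a 133-base exon upstream of the start codon (chr3:89166682-89166814) was skipped in saline library 3 and in morphine libraries 1, 2 and 3, and exon 7 (167 bases) in morphine library 3. Clk3 had no skipped exon in any library. Over the 13 skipped-exon events of the 4 genes, 6 were listed in 1 library and 2 (15.4%) in all 6, and over all genes 44.6% and 19.5% of 13030.

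The comparison of saline and morphine asked whether Clk splicing forms differed in the NAc after morphine CPP training. No Clk event was listed in all 3 libraries of one group and in none of the other (0 of 92), where 0.66% of all 133207 events were. A set of 92 events would hold few or none at that share. For retained introns the background was 0.701% and for skipped exons 1.14%. Counted by intron, 0 of the 48 Clk introns were retained in all libraries of a single group, and 0.0996% of all introns were. By number of libraries, 12 Clk events differed by 2 or more between the groups, 8 of them listed more often in saline and 4 more often in morphine, and over all events 7.55% did so (3.37% more often in saline and 4.18% more often in morphine). The 8 were intron 8 and the span of introns 3 and 4 of Clk3, the block of introns 6 and 7 of Clk1, and 5 events around intron 2 and the 67-base exon of Clk4. The 4 were both spans of the long Clk1 block, the last exon at exon 3 of Clk3 and skipping of the 133-base exon of Clk2. Introns 6 and 7 of Clk1 and introns 3 and 4 of Clk3 were nonetheless held whole by an assembled exon in all 6 libraries. By that measure, intron 8 of Clk3 was in no assembled exon in 2 morphine libraries, and intron 2 of Clk4 in none in 3. Part of intron 2 of Clk4 did lie in an assembled exon in saline library 1 and morphine libraries 1 and 3.

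The number of retained-intron events of Clk3 was 2, 2 and 2 in saline libraries 1, 2 and 3, and 1, 0 and 1 in morphine libraries 1, 2 and 3. The groups did not overlap, with 2.0 ± 0.0 in saline and 0.667 ± 0.577 in morphine (SD, n = 3). This was the smallest p that 3 against 3 libraries allow (exact permutation test, two-sided, p = 0.1), and p was 1.0 after Benjamini-Hochberg adjustment over the 4970 genes with retained introns. The groups did not overlap for 2.96% of those genes, and were lower in morphine for 0.785%. Counted by intron, Clk3 had 3, 3 and 3 retained introns in saline and 1, 0 and 2 in morphine (exact permutation test, p = 0.1), and 2 of the 3 introns involved lay in the last exon of morphine libraries 1 and 2.

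Clk4 listed 3, 10 and 12 retained-intron events in saline libraries 1, 2 and 3, and 4, 2 and 3 in morphine libraries 1, 2 and 3. Saline libraries 2 and 3 stood above the rest, and saline library 1 lay within the range of the morphine libraries. The means were 8.33 ± 4.73 and 3.0 ± 1.0 events (SD, n = 3, p = 0.3 by a two-sided exact permutation test, adjusted p = 1.0). The same stretch can count in several classes and spans. By intron, 2, 3 and 4 introns of Clk4 were retained in saline and 3, 2 and 2 in morphine (exact permutation test, p = 0.7). Skipped exons of Clk4 followed the same libraries, at 3, 7 and 7 in saline and 3, 2 and 3 in morphine (exact permutation test, p = 0.3). Alternative exon ends did so too, at 2, 7 and 5 against 2, 0 and 2 (exact permutation test, p = 0.3). Most of these extra events lay in or beside intron 2. Without saline library 1 the difference in retained introns of Clk4 was -8.0 events, and it was -3.5 without saline library 3.

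Clk1 listed 4, 4 and 6 retained-intron events in saline and 5, 3 and 3 in morphine. The means were 4.67 ± 1.15 and 3.67 ± 1.15 (SD, n = 3, exact permutation test, p = 0.5). By intron, 4, 4 and 5 introns of Clk1 were retained in saline and 4, 5 and 5 in morphine. The groups overlapped on both measures, and the morphine libraries with the fewest events, 2 and 3, were those with the longest block.

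Clk2 listed 5, 4 and 5 retained-intron events in saline and 0, 7 and 10 in morphine. The morphine libraries held both the lowest and the highest number, so that the means were 4.67 ± 0.577 and 5.67 ± 5.13 (SD, n = 3, exact permutation test, p = 0.8). The difference of 1.0 events turned to -1.17 without morphine library 3 and rose to 3.83 without morphine library 1. By intron the sign was the opposite. There, 4, 5 and 2 introns of Clk2 were retained in saline and 0, 3 and 5 in morphine. That is a difference of -1.0 (exact permutation test, p = 0.7). Skipped exons of Clk2 numbered 0, 0 and 1 in saline and 1, 1 and 2 in morphine, where the groups met at 1 (exact permutation test, p = 0.3). The groups did not overlap in skipped exons for 2.05% of 5309 genes.

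**Figure D4:**
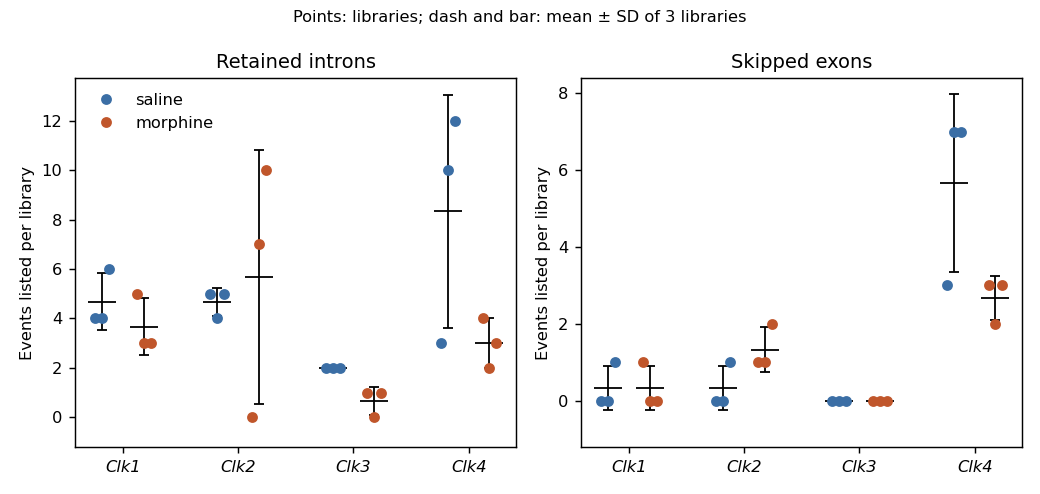
Number of retained-intron events (left) and skipped-exon events (right) listed per library (y axis) for each Clk gene (x axis), in the saline (blue) and morphine (orange) libraries. Points are libraries, and the dash and bar give the mean ± SD of 3 libraries. The groups are apart only for retained introns of Clk3, and saline libraries 2 and 3 stand high in Clk4.

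Summed over the 4 genes, retained-intron events numbered 14, 20 and 25 in saline and 10, 12 and 17 in morphine. The groups overlapped, with means of 19.7 ± 5.51 and 13.0 ± 3.61 (SD, n = 3) and a difference of -6.67 (exact permutation test, two-sided, p = 0.2). Over all genes the difference had the opposite sign, with 6313 ± 1440 retained introns in saline and 7815 ± 1610 in morphine (exact permutation test, p = 0.3). Per 1000 retained introns of the library, the Clk genes held 1.76, 3.64 and 4.57 in saline and 1.04, 1.63 and 2.62 in morphine. The libraries with the most retained introns over all genes in each group, saline 1 and morphine 1, had the lowest Clk share in their group. Skipped exons of the 4 genes numbered 3, 7 and 9 in saline and 5, 3 and 5 in morphine (exact permutation test, p = 0.5). All events together numbered 29, 45 and 50 in saline and 30, 26 and 37 in morphine (exact permutation test, p = 0.3). Clk4 alone differed by -5.33 in retained introns, -3.0 in skipped exons and -11.7 in all events. Clk2 differed by 1.0, 1.0 and 3.0, and Clk1 and Clk3 by -1.33 to 0.0.

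Of the 48 Clk introns, 13, 15 and 14 were retained in saline and 8, 10 and 14 in morphine, which is 14.0 ± 1.0 against 10.7 ± 3.06 (SD, n = 3, exact permutation test, p = 0.3). Counting every assembled exon that held a whole intron, the means were 16.3 and 15.0 (exact permutation test, p = 0.5). By this wider count, intron 8 of Clk3, intron 2 of Clk4 and introns 9 and 10 of Clk2 were held in 2 more saline than morphine libraries. Introns 7 and 8 of Clk2 were held in 2 more morphine than saline libraries.

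Related genes were described from 4 lists. Among the SR protein kinases outside the Clk family (Srpk1, Srpk2, Srpk3 and Prpf4b), all 4 had an intron retained in at least 1 library and 0 had an intron retained in all 6. Of the 9 Dyrk and Hipk kinases, the nearest relatives of the Clk kinases, 2 had an intron retained in at least 1 library and 0 in all 6. Of 13 SR and SR-like splicing factors, the substrates of Clk kinases, 11 had an intron retained in at least 1 library and 3 in all 6. These were Srsf1 in introns 3 and 4 (chr11:88049216-88049411 and chr11:88049599-88049976), Srsf5 in intron 6 (chr12:80947866-80949094) and Srsf7 in intron 3 (chr17:80204388-80205261). Of 4 other genes known for detained introns (Ogt, Mat2a, Ddx5 and Tnpo3), 3 had an intron retained in at least 1 library. Ogt, which encodes the O-GlcNAc transferase, was the one with an intron in all 6 libraries, its intron 5 (chrX:101652209-101655623). Over the 13037 genes with an entry in every library, 35.5% had an intron retained in at least 1 library and 3.5% in all 6. The list counts were not restricted in this way. An entry in every library was found for 3 of 4, 7 of 9, 13 of 13 and 4 of 4 list genes, in the order above. No level was available to match the lists to genes of like expression. In none of the lists was an event found in all libraries of a single group, and in none did a gene have groups that were apart in retained introns. The 4 lists held 61, 64, 157 and 34 events, in the order above. Over all genes, 0.66% of events and 2.96% of genes with retained introns were of these kinds. At such shares, lists of this size would hold few or none.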

How the data were processed

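Total RNA of mouse NAc was sequenced by the authors in strand-specific libraries, 3 per group. Reads were mapped with HISAT2 2.0.4 and assembled with StringTie 1.3.1, per the study's methods. The genome build is not given in the sources used here. In the 6 libraries 92.8% to 94.9% of single retained introns matched a GENCODE M21 (GRCm38) intron. The authors deposited, per library, a list of events in the layout of the ASprofile program. Its column headed FPKM held only 0 and negative whole numbers and was not used. The authors' deposited table of 31 lncRNA transcripts holds raw read counts and FPKM values (per transcript length and mapped fragments), from whose ratio over 91 values with at least 10 counts relative depth was taken. Its fold changes and p-values are the authors' own comparisons and were not used. All count and FPKM columns of single samples in that table were used.

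Entries for the 2 forms of an event were joined, and its identity was its class, gene, strand, start and end. The 20 event types gave 12 classes in 4 families: retained introns, skipped exons, alternative exon ends and transcript ends. All 4 Clk genes were named, with each retained intron or skipped exon listed in 2 or more libraries, and of the related genes those with an intron retained in all 6 libraries or with an event specific to a group. An intron of the protein-coding transcript with the most exons counted as retained where a retained form held the whole of it. That measure was chosen after seeing the data, and the Clk genes and gene lists were chosen with earlier results of these data known. Groups came from the treatment labels, and replicate numbers are names only. Events per library were compared by exact permutation tests (two-sided, smallest p = 0.1 for 3 against 3), with Benjamini-Hochberg adjustment over all genes with an event of the family. The code was tested on simulated data. Alternatives were identity by all coordinates, the number per 1000 events, the gene's strand only, single events only, a difference of 2 libraries, and each library left out. Python 3.11.15, numpy 2.4.6, pandas 2.3.3, scipy 1.17.1, matplotlib 3.10.9 and Biopython 1.88 were used.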

Additional observations from a re-analysis of the deposited data

How the results depend on the processing

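No paired analysis was possible because the labels number no replicates and the numbers used here, in order of accession, pair no libraries. The difference in Clk events summed over the 4 genes, morphine minus saline, was below 0 under every alternative run for the values below. For retained introns it was -6.67, and it was -14.7 with identity by all coordinates, -1.56 per 1000 events, -2.33 for single retained introns, and -9.5 to -4.0 with a library left out. For skipped exons it was -2.0, and it was -4.0 with identity by all coordinates, -0.341 per 1000 events, -0.333 for single skipped exons (4.0 in saline against 3.67 in morphine), and -3.67 to -0.667 with a library left out. For all events it was -10.3, and -16.5 to -6.0 with a library left out. For introns retained it was -3.33, and -5.0 to -2.0 with a library left out. No alternative left out a gene. In events, Clk4 alone gave -5.33 for retained introns, -3.0 for skipped exons and -11.7 for all events. For skipped exons and all events, Clk4 went beyond the summed differences of -2.0 and -10.3. Without Clk4 both of these sums would therefore lie above 0, and most of the difference in retained introns came from Clk4. Restricting to the gene's strand changed nothing, as all Clk entries were on it. With 3 against 3 libraries the exact permutation test gives no p under 0.1, so no gene could pass 0.05, and the p-values say nothing about stability.

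The count of 0 group-specific Clk events became 12 with a difference of at least 2 libraries, and ranged from 0 to 5 with a library left out. It was 5 without saline library 1, all listed in saline, 4 without morphine library 1, 2 without morphine library 3 and 1 without saline library 3, where fewer libraries need to list an event. Among single genes, 3 values changed sign. Retained introns of Clk2 gave -1.17 without morphine library 3 and 3.83 without morphine library 1 (1.0 with all), and all events of Clk2 gave -0.5 and 6.5 without them (3.0 with all). In Clk1, all events gave 0.667 without saline library 3 and -2.67 without morphine library 1 (-1.0 with all). The lists carry no read support per event, so a form below the assembly threshold cannot be told from one that is absent.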
